A study of Mus musculus with 2 samples.

Results

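Mesothelium genes were compared between lungs of mouse embryos labelled as Etv4;5 knockout and wild type lungs, both at E13.5, an embryonic stage when the airway tree is still branching. The 9 genes were Wt1, Bnc1, Upk3b, Upk1b, Msln, Muc16, Lrrn4, Gpm6a and Rspo1, chosen by name as genes of the mesothelium out of 19938 genes that could be named from the array's annotation. The rule names genes and uses no measured value, although the genes were picked when earlier results of these data were known. Each of the 9 genes was read by 1 probe set, so the step that takes the brightest probe set of a gene had no effect. Each group was a pool of equal RNA from 3 samples, read on 1 Affymetrix array. With 1 array per group and hence no replicates, nothing could be tested across samples, and the differences describe this pair of pools. The genes named in the knockout, Etv4 and Etv5, encode ETS transcription factors of the PEA3 group, and the wild type carries no alteration named in the labels. The title of the knockout sample abbreviates it as CKO, its description and the design text as DKO, and no Cre line, promoter or deleted exon is given in the sources used here, so the cells that lost the genes are not known.

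The mesothelium is the single layer of flat epithelial cells that covers the lung and lines the chest cavity. In the embryo it is known as a source of signals for the tissue beneath it, among them Fgf9 and retinoic acid, and some of its cells enter the lung and join the mesenchyme. Its cells carry the transcription factor Wt1 together with a set of surface and secreted proteins that other lung cells mostly lack. Etv4 and Etv5 are best known from the distal lung epithelium, where fibroblast growth factor signalling induces them. Because whole lungs were measured, a change in the number of mesothelial cells and a change in RNA per cell cannot be told apart.

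The values were read as log2 expression values from their range, from 2.69 to 14.4 on the knockout array and from 2.72 to 14.4 on the wild type array, since the scale was not stated. The array medians were 7.58 in knockout and 7.60 in wild type over 35557 probe sets. Differences are knockout minus wild type on this scale. A gene was called different at 1.5-fold or more, which corresponds to a size and not to a test, and called measured when the brighter of its values reached the median of its array. Levels are not compared between genes, because each probe set has its own brightness. The targeted genes had lower values in knockout. Etv4 stood at 6.96 in knockout and 7.59 in wild type (difference -0.63), both below the array medians, and Etv5 at 11.28 in knockout and 11.51 in wild type (-0.23), with -0.24 on its other probe set. Where these probe sets lie relative to the deleted parts is not known, and one outside them checks nothing. Sex-linked genes differed between the pools as well: Xist stood at 5.74 in knockout and 12.34 in wild type, and Uty, Eif2s3y and Kdm5d were 0.64, 0.53 and 0.53 higher in knockout. With 1 pool per group, a difference in the mix of sexes between the pools cannot be told apart from the knockout. None of the 9 mesothelium genes lies on X or Y (0 of 9), which does not separate the 2 for genes on other chromosomes. The part of the sex difference in the members' values was not tested.

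The mesothelium genes had nearly the same values on both arrays. No member reached 1.5-fold in either direction (0 of 9 higher and 0 of 9 lower), beside 0.14% of all named genes called higher and 0.125% called lower at that size. At a lower threshold, a log2 difference of 0.32, the count was also 0 in each direction, against 1.1% and 0.687% of all named genes. With so few genes past these sizes anywhere, a count of 0 among 9 is close to what the whole array gives and says little about these genes in particular. Of the 9 members 6 had a higher value in knockout, 1 a lower value and 2 equal values, beside 33.4%, 33.2% and 33.5% of all named genes. Among the 11058 measured genes alone these shares were 25.6%, 47% and 27.4%. Of the 7 measured members, 4 had a higher value, 1 a lower value and 2 equal values. The median difference was 0.052 over all 9 members and 0 over all named genes, and the central 95% of all named genes ran from -0.21 to 0.25. All 9 members lay within that range, from -0.086 for Upk3b to 0.20 for Bnc1. For the 777 genes read by 2 probe sets, the differences of those probe sets were 0.045 apart at the median and at most 0.20 apart in 90% of genes. The difference of Bnc1 was about as large as that 90% limit, and those of the other members were smaller.

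**Figure D1:**
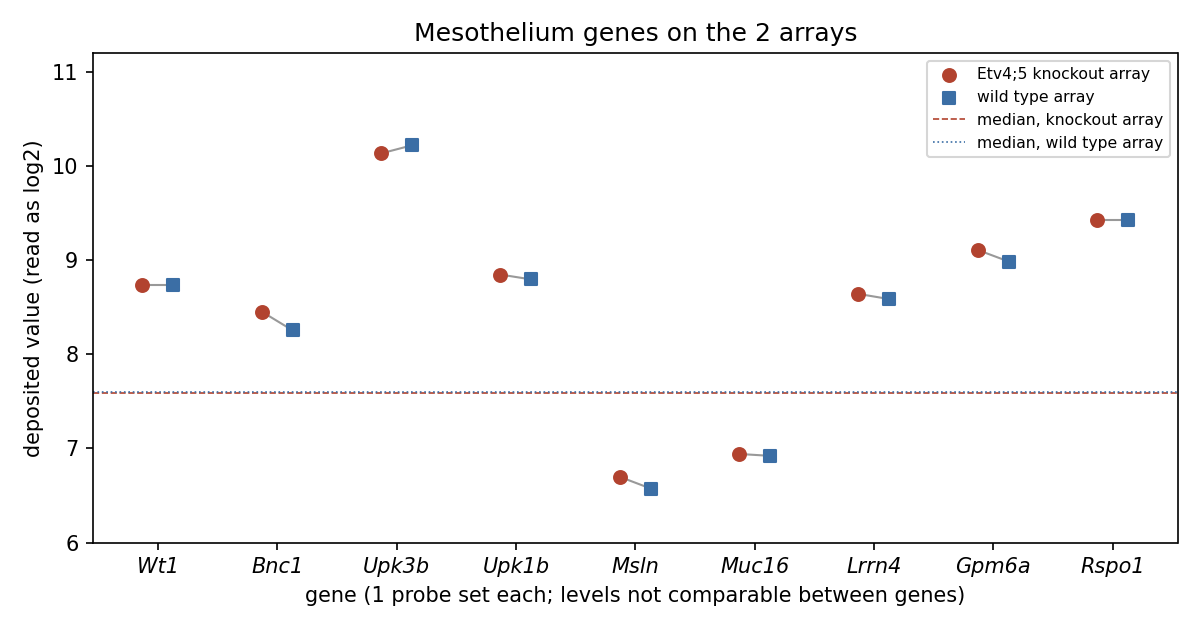
Deposited values (vertical axis, read as log2) of the 9 mesothelium genes on the Etv4;5 knockout array (circles, left) and the wild type array (squares, right), with 1 array per group and the medians of both arrays as dashed and dotted lines. Paired points lie almost level, with the widest gap of 0.20 at Bnc1, and only Msln and Muc16 lie below the medians.

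The transcription factors of the group were Wt1 and Bnc1. Wt1, a zinc finger factor required in mesothelia of several organs, stood at 8.74 in knockout and 8.74 in wild type, and the deposited values were identical. Bnc1, which encodes the zinc finger protein basonuclin, stood at 8.45 in knockout and 8.25 in wild type, a difference of 0.20 (1.15-fold). Bnc1 thus had the widest gap of the 9, and 7.21% of all named genes had a gap at least as wide. Its paralog Bnc2, a gene of mesenchymal cells too, stood at 9.85 in knockout and 9.90 in wild type (-0.048).

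The uroplakins are membrane proteins named for the plaques of the bladder lining, and some members of the family are also made by mesothelium. Upk3b, widely used as a marker of mesothelial cells, stood at 10.13 in knockout and 10.22 in wild type, a difference of -0.086. It was the only member with a lower value in knockout. Upk1b, a tetraspanin of the same plaques, stood at 8.85 in knockout and 8.79 in wild type (0.052). Upk1b lies on chromosome 16, as does Etv5. The uroplakins Upk1a, Upk2 and Upk3a were below the medians of both arrays, with differences of 0.034, 0.021 and 0.

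Msln and Muc16 encode a pair of surface proteins that bind each other, mesothelin and the large mucin known as CA125. Both were dim here. Msln stood at 6.70 in knockout and 6.57 in wild type (0.12), and Muc16 at 6.94 in knockout and 6.92 in wild type (0.020). As both genes lay under the array medians on both arrays, 7 of the 9 members counted as measured, and the data say least about this pair. Of the related genes, the mesothelin-like gene Mslnl was dim as well (6.66 in knockout, 6.45 in wild type).

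Lrrn4 and Gpm6a encode membrane proteins that neurons are also known to carry. Lrrn4, with leucine-rich repeats outside the cell, stood at 8.64 in knockout and 8.59 in wild type (0.055). Gpm6a, a glycoprotein of the proteolipid family, stood at 9.11 in knockout and 8.98 in wild type (0.12). A gap at least as wide as that of Gpm6a was found in 17.9% of all named genes. Its paralog Gpm6b had equal values (10.62 in knockout and 10.62 in wild type). Among the paralogs of Lrrn4, Lrrn1 stood at 8.06 in knockout and 8.73 in wild type, a difference of -0.67 (1.59-fold) that passed the 1.5-fold size, while Lrrn2 differed by 0.11 and Lrrn3 had equal values.

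Rspo1 encodes R-spondin 1, a secreted protein that strengthens Wnt signalling by binding Lgr receptors and removing the ubiquitin ligases Znrf3 and Rnf43 from Wnt receptors. It stood at 9.42 in knockout and 9.42 in wild type, with identical deposited values. Identical values were common on these arrays, in 28.2% of all probe sets, so the equality of Wt1 and Rspo1 is not peculiar to them. The R-spondin and Wnt pathway was described from a list of 16 genes, of which 15 were matched. It holds the other R-spondin ligands, receptors, the 2 ligases and Wnt response genes. Of these 15, 0 reached 1.5-fold in either direction, beside 0.14% of all named genes called higher and 0.125% called lower. A higher value was found for 5 and a lower one for 8, with 11 of the 15 measured, and the median was -0.0029. These directions were found in 33.4% and 33.2% of all named genes and in 25.6% and 47% of measured genes. The R-spondin receptor gene Lgr5 stood at 8.46 in knockout and 8.23 in wild type (0.23), whereas Lgr4 stood at 8.39 in knockout and 8.58 in wild type (-0.18). Lgr6 and Rnf43 differed by 0.11 and 0.18 and Znrf3 by -0.0029. Among Wnt response genes, Axin2 differed by -0.14 and Lef1 by 0.0017, and Sp5, which was dim, by -0.25. Rspo2, the R-spondin of the lung mesenchyme, differed by -0.061.

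Other genes known from mesothelium had differences between -0.28 and 0.78, beside the -0.086 to 0.20 of the members. Of 15 listed genes 14 were matched and 10 were measured, with a median of 0.054. A higher value in knockout was found for 9, a lower value for 4 and equal values for 1. Over all named genes these shares were 33.4%, 33.2% and 33.5%, and over measured genes 25.6%, 47% and 27.4%. Ildr2, which encodes an immunoglobulin-like receptor, was the only 1 of these 14 past 1.5-fold, beside 0.14% of all named genes called higher. It stood at 7.89 in knockout and 7.11 in wild type, a difference of 0.78 (1.72-fold). Its wild type value lay below the array median, so the size of that difference rests on a dim value. Calb2, which encodes the calcium-binding protein calretinin and is also made by neurons, stood at 10.18 in knockout and 9.73 in wild type (0.45). Krt19, a keratin that the lung epithelium makes too, stood at 9.80 in knockout and 9.36 in wild type (0.45), and the keratin gene Krt7 at 10.13 in knockout and 9.88 in wild type (0.25). The higher values of Krt7 and Krt19 stand beside those of the epithelial markers given below, and the part of the epithelium in these differences was not tested.

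The other measured genes of the list had equal or lower values in knockout except Cldn15 (0.025), a claudin gene. Aldh1a2, the enzyme that makes retinoic acid in mesothelium, had equal values (10.14 in knockout and 10.14 in wild type). Fgf9, a growth factor of mesothelium and early epithelium, stood at 8.04 in knockout and 8.23 in wild type (-0.19). Pdpn, which encodes podoplanin of mesothelial, lymphatic and alveolar type 1 cells, stood at 8.78 in knockout and 9.06 in wild type (-0.28). Podxl, a sialomucin of mesothelium and vessels, differed by -0.10, and the ion pump partner gene Nkain4 by -0.029. Tbx18, Dmkn, Pkhd1l1 and Anxa8 were below the medians of both arrays, with differences between 0.054 and 0.12.

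**Figure D2:**
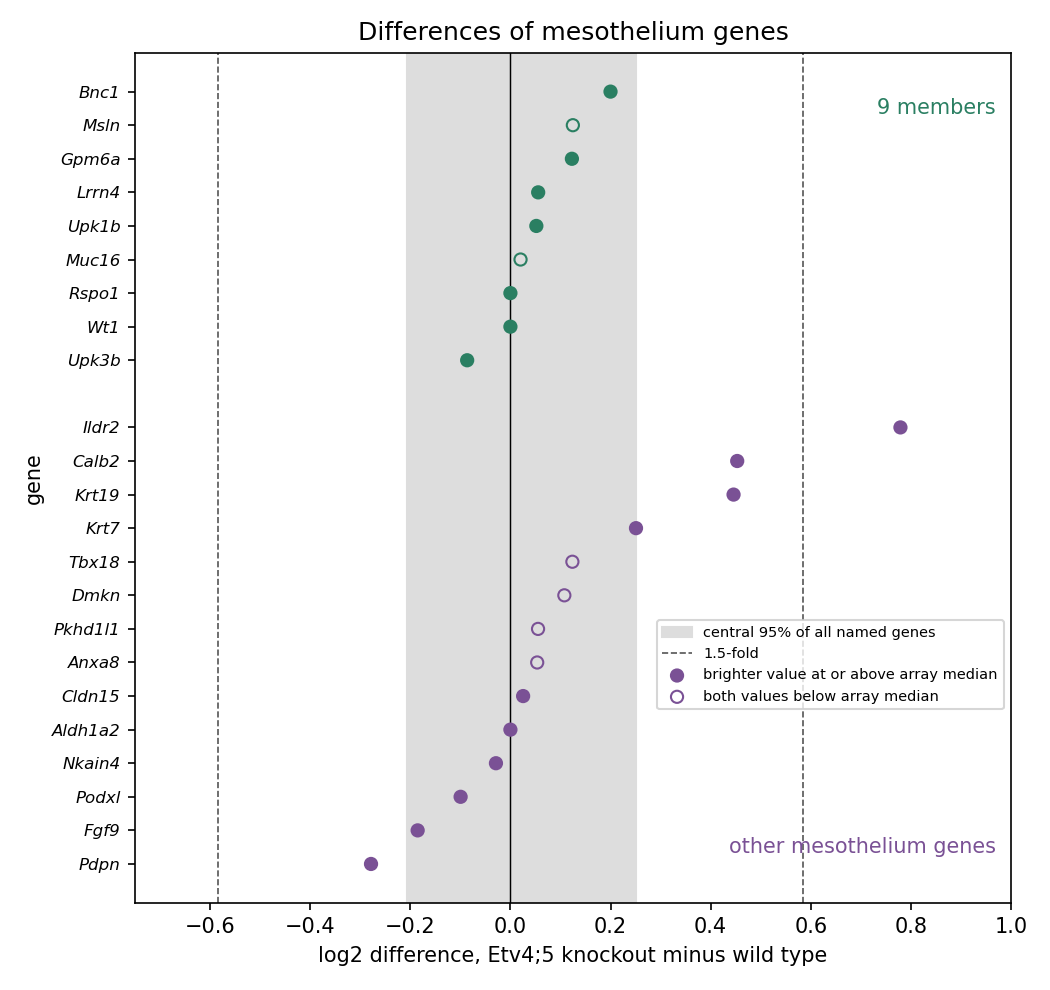
Log2 differences (horizontal axis, Etv4;5 knockout minus wild type, 1 array per group) of the 9 members (upper block) and 14 other mesothelium genes (lower block), with open circles for genes below both array medians, a grey band for the central 95% of all named genes and dashed lines at 1.5-fold. All 9 members lie inside the band, while Ildr2 lies past 1.5-fold at 0.78 and Calb2 and Krt19 lie at 0.45. Krt7 lies at the upper edge of the band at 0.25, and Pdpn lies below the band at -0.28.

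Genes tied to Wt1 were described from a list of 10 cofactors and genes known as its targets in other tissues, all of them matched, which shares Podxl and Aldh1a2 with the mesothelium list above. None of the 10 reached 1.5-fold (0 higher and 0 lower), beside 0.14% of all named genes called higher and 0.125% called lower. Of the 10, 2 had a higher value, 6 a lower value and 2 equal values, with a median of -0.040. Over all named genes these shares were 33.4%, 33.2% and 33.5%, and over measured genes, which included 9 of the 10, 25.6%, 47% and 27.4%. Itga4, an integrin subunit, had the widest gap, at 8.77 in knockout and 9.01 in wild type (-0.24). The FGF feedback inhibitor gene Spry1 differed by -0.070 and Gas1, a cell surface protein of Hedgehog signalling, by -0.084. The Wt1-associated protein gene Wtap gave 0 on its brighter probe set and -0.25 on its other one, so its value depends on the probe set. Of the Hedgehog pathway, known to act on mesothelial cells, 4 genes were listed, all of them measured. All 4 had lower values in knockout, beside 47% of measured genes, and 0 reached 1.5-fold. The ligand Shh stood at 9.11 in knockout and 9.52 in wild type (-0.41). The receptor and target Ptch1 stood at 11.58 in knockout and 12.05 in wild type (-0.47). Gli1 and Smo differed by -0.14 and -0.078. Whole lungs were read, so the cells behind these values are not known.

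Upstream sequences of members were read for the motif AGGAAG, the core of PEA3 sites, on both strands of the 250 bases before the start. The RefSeq promoter table (GRCm38.p6) held 6 of the 9 members, with 2 starts for Gpm6a, and not Wt1, Upk1b or Msln. AGGAAG was found in 3 of these 6 genes, Upk3b, Gpm6a (at its first start only) and Lrrn4. Counted by window, 3 of 7 member windows held it, beside 29.5% of 32851 promoters of the same length. The match lay 108 to 113 bases before the start in Upk3b (on the other strand), 93 to 98 bases in Gpm6a and 149 to 154 bases in Lrrn4. GGAAG, which lies within AGGAAG, was found in the same 3 genes, in 3 of 7 member windows and in 64.1% of all promoters. TGGGAG, a motif of WT1 type, was found in 3 genes (Upk3b, Gpm6a and Muc16), in 3 of 7 member windows and in 24.9% of all promoters. GCGTGGG, also of WT1 type, was found in 0 of 7 member windows and in 4.30% of all promoters. These matches describe letters only, and no binding was measured. The windows of Upk3b, the 1 member with a lower value, of Gpm6a, which differed by 0.12 and holds the motif, and of Bnc1, which had the widest gap and holds none, are shown 5′ to 3′ on the strand of the gene, with AGGAAG or its reverse complement in capitals.
Upk3b, chr5:136038246-136038495, plus strand: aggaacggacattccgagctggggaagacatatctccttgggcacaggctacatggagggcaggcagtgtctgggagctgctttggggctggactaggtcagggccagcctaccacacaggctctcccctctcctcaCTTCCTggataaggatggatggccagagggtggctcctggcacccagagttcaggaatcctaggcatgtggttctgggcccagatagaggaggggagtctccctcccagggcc
Gpm6a, first start, chr8:54779184-54779433, plus strand: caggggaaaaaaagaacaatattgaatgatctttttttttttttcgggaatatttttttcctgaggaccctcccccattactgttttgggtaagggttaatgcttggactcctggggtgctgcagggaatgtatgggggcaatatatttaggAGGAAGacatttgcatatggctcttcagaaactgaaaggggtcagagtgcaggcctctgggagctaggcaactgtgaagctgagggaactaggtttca
Bnc1, chr7:81992300-81992549, minus strand: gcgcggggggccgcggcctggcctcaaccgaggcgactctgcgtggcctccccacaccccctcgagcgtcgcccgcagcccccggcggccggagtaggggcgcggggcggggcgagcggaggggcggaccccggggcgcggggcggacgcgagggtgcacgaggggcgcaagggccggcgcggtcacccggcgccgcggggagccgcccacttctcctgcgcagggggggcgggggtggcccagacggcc
The Bnc1 window was made of G and C for 83.6% of its bases, against a median of 52.4% over all promoters. The genes with the motif differed by -0.086 (Upk3b), 0.12 (Gpm6a) and 0.055 (Lrrn4), all under 0.32 in size. A link between the motif and these values was not tested.

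Markers of the other lung cell types are given beside the members, since they share the same pools. All the epithelial, mesenchyme, smooth muscle and endothelial markers were measured, and 0 of them reached 1.5-fold in either direction. At that size 0.14% of all named genes were called higher and 0.125% lower. Among all measured genes 25.6% had a higher value in knockout and 47% a lower one. Of 8 epithelial markers 7 had a higher value in knockout and 1 a lower one, and their median was 0.10. Krt18 and Krt8, keratins of simple epithelia, differed by 0.47 and 0.33, and the distal tip factor Sox9 by -0.32. All 6 mesenchyme markers had lower values (median -0.11, with Foxf1 at -0.40 and the epicardial and mesenchymal factor Tcf21 at -0.14), as did all 6 smooth muscle markers (median -0.24, with Myocd at -0.39 and Cnn1 at -0.31). Of 6 endothelial markers 4 were lower and 2 equal (median -0.014, with Pecam1 at -0.085 and Tek at -0.079). The mesothelium members, at 0.052, thus lay between the epithelial and the endothelial medians, and no test of these differences was possible.

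Neighbouring organs that carry mesothelium or Wt1 of their own were looked for in both pools. Of 6 heart muscle markers 3 were measured, and the mean level of all 6 was 8.31 in knockout and 8.36 in wild type. The brightest of them, Actc1, stood at 11.44 in knockout and 11.44 in wild type. Of 6 skeletal muscle markers 2 were measured, and the mean of all 6 was 7.09 in knockout and 6.99 in wild type. Of 5 liver markers 1 was measured, Apoa1, at 7.56 in knockout and 7.63 in wild type, and the mean of all 5 was 6.58 in knockout and 6.55 in wild type. None of the 5 markers of the urogenital ridge, where Wt1 and Rspo1 are also active, was measured (0 of 5), and their mean was 6.77 in knockout and 6.72 in wild type. The widest gaps in these lists were 0.32 for the dim muscle factor Myog and -0.25 for the atrial myosin light chain gene Myl7. Array values do not reach 0 for an absent gene, and the part of these tissues in the members' values was not tested.

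**Figure D3:**
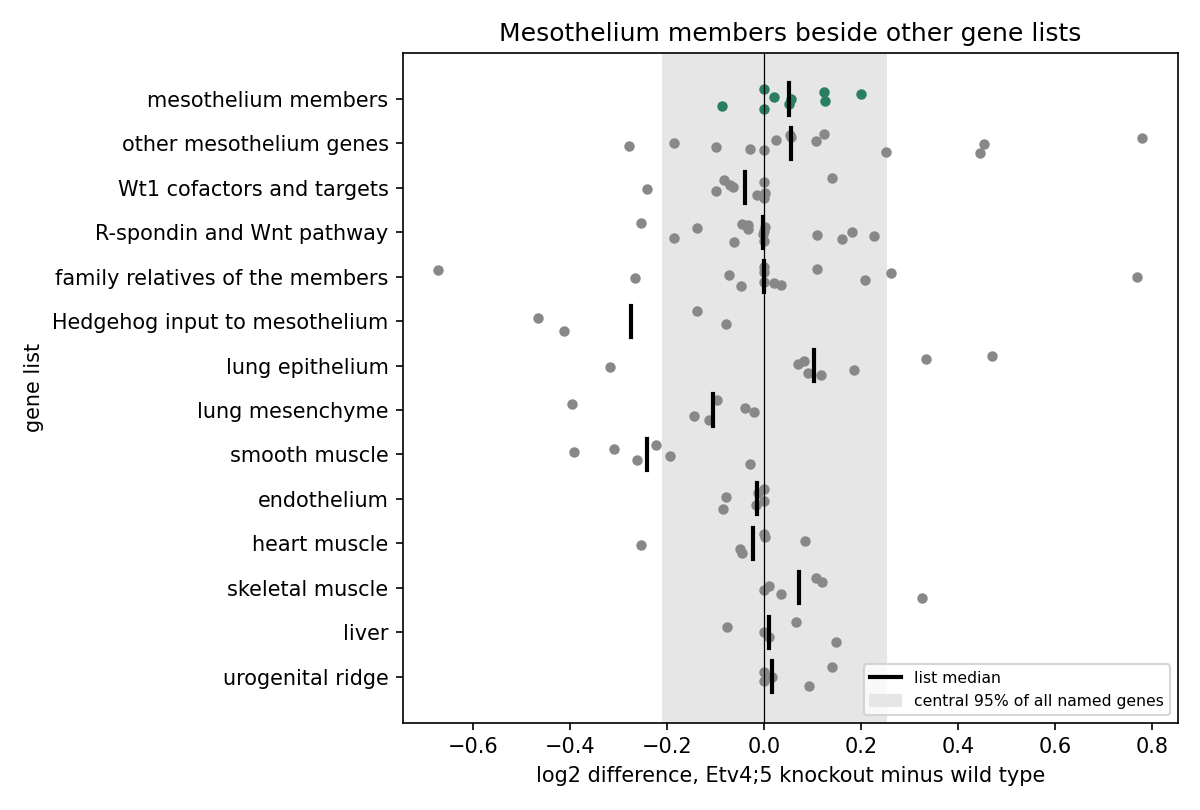
Log2 differences (horizontal axis, Etv4;5 knockout minus wild type, 1 array per group) of the genes in each list (rows), with 1 point per gene, a black bar at the list median and a grey band for the central 95% of all named genes. The mesothelium members lie between -0.086 and 0.20 around a median of 0.052, while the smooth muscle median is -0.24 and the epithelial median 0.10.

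Among the 14 listed relatives of the members 13 were matched, and 2 passed 1.5-fold in opposite directions. Over all named genes 0.14% were called higher and 0.125% lower at that size. Muc4, a membrane mucin of airway epithelium, stood at 8.05 in knockout and 7.29 in wild type, a difference of 0.77 (1.70-fold), with the wild type value below the array median. The other was Lrrn1, given above at -0.67. Muc1, an epithelial membrane mucin, stood at 8.85 in knockout and 9.11 in wild type (-0.27), so the mucins beside Muc16 differed in both directions.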

How the data were processed

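Biotin-labelled RNA of pooled embryonic lungs was read on Affymetrix arrays, per the labels' protocols. The values that the authors deposited were read as log2 because of their range. The log base, summary method and normalization are not given in the sources used here. Names came from the platform annotation, in which 21789 of 35557 probe sets had 1 gene symbol, 1621 several and 12147 none. The brightest probe set on average stood for each of 19938 genes, of which 11058 were measured. Equal values counted as measured if they reached either median. The members and lists were chosen with earlier results of these data known. The text names all members, the targeted and sex-linked genes, members of the mesothelium, R-spondin, Hedgehog and family lists, and of other lists those past 1.5-fold or with the widest gaps. Some further genes (Sox9, Spry1, Gas1, Wtap, Myog, Actc1) were named after their values were seen. Alternatives were 3 scalings (loess of span 0.3, quantile, equal medians), a floor at the 25th percentile, the mean over probe sets, the probe set brightest in wild type, measured genes only, thresholds of 0.32 (log2) and 2-fold, and a window of 100 bases for motifs. Counting was run on shuffled differences with planted changes past 1.5-fold, which checks the code and not the noise of the arrays. Values were otherwise used as deposited, with Python 3.11.15, numpy 2.4.6, pandas 2.3.3, statsmodels 0.14.6 and matplotlib 3.10.9. The number of arrays limits the precision.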

Additional observations from a re-analysis of the deposited data

How the results depend on the processing

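No paired analysis was possible because each group had 1 array, and no array could be left out. Under each of the 3 other scalings 0 members reached 1.5-fold in either direction. At a threshold of 0.32 (log2) the count was also 0, so at 2-fold it could only be 0. The alternatives to the probe set, the floor and the filter could not move a member's value, since each has 1 probe set and lies above the floor. The members' median lay between 0.052 and 0.070. Of the single members, Bnc1 lay between 0.20 and 0.22, Gpm6a between 0.12 and 0.15 and Upk3b between -0.086 and -0.062. The number of members with a higher value was 6 as deposited, 8 with equal medians or quantile scaling, 7 with loess, and 4 among measured genes, where fewer members enter. The number with a lower value was 1 as deposited and 2 with loess. Loess takes a trend fitted along brightness off the knockout values, which moved Muc16 from 0.020 to -0.0010. Equal medians moved the median of all named genes by 0.017, so values as close to 0 as those of Wt1, Rspo1 and Muc16 carry no direction. Within 100 bases of the start, a shorter window than 250, AGGAAG was found in 1 of 7 member windows and 13.8% of all promoters. GGAAG was found in 2 of 7 and 35.7%, TGGGAG in 3 of 7 and 10.9%, and GCGTGGG in 0 of 7 and 2.04%. Counted by gene, these were 1, 2, 3 and 0 of 6. Dim signal limits Msln and Muc16 most.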
